A study of Mus musculus with 17 samples.

Results

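The genes described here were the 8 adrenergic receptor genes Adra1a, Adra1b, Adra1d, Adra2a, Adra2b, Adra2c, Adrb1 and Adrb3, taken by symbol from the 35285 genes of the deposited FPKM table, where each symbol occurred once. FPKM, fragments per kilobase of exon scaled to the fragments counted in a library, is a level per length, by which genes can be compared, while comparisons between libraries depend on the scaling, for which alternatives are given below. The study asked whether brimonidine, an agonist of α2-adrenergic receptors, protects the mouse cochlea from noise, and sequenced RNA from 17 libraries, each from 1 mouse. Control mice (n = 3) were given saline intraperitoneally and no noise. Mice of the NE group (n = 7) were exposed for 2 h to noise of 8 to 16 kHz at 100 dB. Mice of the brimonidine group (n = 7) had the same noise and intraperitoneal brimonidine at 1 mg/kg on the day before, the day of and the first day after exposure. All were male wild-type C57BL/6J mice, 8 weeks old, whose cochleae were taken on the second day after exposure. This strain carries a Cdh23 allele that causes early hearing loss, and none of the 17 libraries had brimonidine without noise. The study's methods give hearing tests for mice of each group on that second day before death, under xylazine and ketamine anesthesia. The labels name the noise broadband and the study's methods octave-band, the labels call the cell type interstitial cells, and the methods for PCR name the basilar membrane.

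Adrenergic receptors are membrane receptors for noradrenaline and adrenaline. The α1 receptors couple to Gq and raise intracellular calcium, the α2 receptors couple to Gi and Go and lower cAMP, and the β receptors couple to Gs and raise cAMP. In neurons α2A and α2C receptors also act as autoreceptors that restrain transmitter release, partly by opening GIRK potassium channels and closing calcium channels. In the cochlea, sympathetic fibers reach the vessels of the modiolus and the osseous spiral lamina.

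The 3 α2 genes are the targets of brimonidine, and each lies on a single coding exon in GENCODE M21. Adra2a (ENSMUSG00000033717) spans chr19:54045182-54048982 on the plus strand of GRCm38, Adra2b (ENSMUSG00000058620) chr2:127363208-127367221 plus, and Adra2c (ENSMUSG00000045318) chr5:35278319-35281763 plus. The study's primers for quantitative PCR of these subtypes are shown because they mark the sequence by which 1 subtype is told from another. Each primer matched 1 gene among the M21 transcripts, inside the coding sequence, and the products spanned 124 bases in Adra2a, 131 in Adra2b and 139 in Adra2c. They lie at chr19:54046748-54046871, chr2:127363665-127363795 and chr5:35280190-35280328.
Adra2a forward: catctccttcccgccactcat
Adra2a reverse: ggaaccgatggacgaggagat
Adra2b forward: gcaatgcgctggtaattctgg
Adra2b reverse: gttggccagagagaaagggatg
Adra2c forward: cactggtcatgcccttttctct
Adra2c reverse: tccagactaatggcacacaggt

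The promoters of the 3 α2 genes are printed because the genes shared a library in which all of them were highest, described below. The 3 α1 genes were highest in the same library, so this is not particular to the α2 genes. Of the 8 genes, 5 had a RefSeq promoter in the table used, with 6 promoters in all, on GRCm38.p6 and from 250 bases before to 50 after the start site. Capitals mark every match on either strand to the TATA motif TATAAA, the GC box GGGCGG, the E box CACGTG, the CCAAT motif or the cAMP response element TGACGTCA, and no match overlapped another. The windows are chr19:54045009-54045308 for Adra2a, chr2:127362929-127363228 for Adra2b and chr5:35278316-35278615 for Adra2c, all on the plus strand. The start site that RefSeq gives for Adra2c lies 247 bases inside the M21 gene, so that 297 of the 300 bases shown for it are within the annotated gene, against 127 for Adra2a and 21 for Adra2b.
Adra2a: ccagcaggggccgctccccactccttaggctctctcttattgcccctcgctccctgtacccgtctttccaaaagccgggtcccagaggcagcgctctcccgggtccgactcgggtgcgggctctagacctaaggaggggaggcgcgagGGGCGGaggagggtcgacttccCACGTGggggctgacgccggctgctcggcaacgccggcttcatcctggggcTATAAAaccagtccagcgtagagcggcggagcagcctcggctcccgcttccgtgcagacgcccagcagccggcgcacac
Adra2b: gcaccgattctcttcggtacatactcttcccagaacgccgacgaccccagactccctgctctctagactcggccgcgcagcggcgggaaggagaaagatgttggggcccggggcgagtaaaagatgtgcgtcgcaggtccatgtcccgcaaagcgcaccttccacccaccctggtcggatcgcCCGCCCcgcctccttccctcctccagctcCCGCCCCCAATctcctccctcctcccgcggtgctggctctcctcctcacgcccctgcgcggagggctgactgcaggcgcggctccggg
Adra2c: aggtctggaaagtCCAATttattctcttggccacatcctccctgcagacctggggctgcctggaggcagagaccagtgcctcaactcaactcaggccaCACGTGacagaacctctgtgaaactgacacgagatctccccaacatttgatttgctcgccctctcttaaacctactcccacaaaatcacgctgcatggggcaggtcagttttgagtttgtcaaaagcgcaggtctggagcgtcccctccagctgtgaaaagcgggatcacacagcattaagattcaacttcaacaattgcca

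TATAAA stood 29 bases before the start site of Adra2a and in none of the other 5 promoters, against 13.6% of all 32851 promoters. GGGCGG stood in 4 of the 6 promoters and in 35.7% of all, CCAAT in 4 of 6 and 37.4%, CACGTG in 2 of 6 and 7.15%, and TGACGTCA in none of the 6 and in 1.79%. In Adra2b a GC box on the minus strand, 38 bases before the start site, adjoined the CCAAT match. The GC content was 68.7% for Adra2a, 68.0% for Adra2b and 51.3% for Adra2c, with a median of 52.7% over all promoters, and the windows do not lie alike in their genes.

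Between 14457733 and 18288854 fragments were counted per library. One fragment in a transcript of 1 kb was worth 0.0547 to 0.0692 FPKM, and 7 of the 8 receptor genes lay below 1 FPKM in most libraries. Control 2 stood apart from the rest. Its median Pearson r of log2(FPKM + 1) with the other libraries was 0.831, against 0.955 and 0.947 for the other controls and 0.97 to 0.981 for the 14 noise-exposed libraries. The cochlear markers were present in every library, with Coch between 444 and 1040 FPKM and Otos, which encodes an inner ear protein, between 21.1 and 107. Neutrophil markers reached a summed 6533 FPKM in control 2 and 27886 to 47152 in the other 16 libraries. No marker list was set for the labelled interstitial cells, and that label was not checked. Summed FPKM of 10 cerebellar neuron markers was 324 to 810 in the controls, 28.8 to 39.9 in the NE group and 27.7 to 109 in the brimonidine group, the highest in control 2 and, among the exposed libraries, in brimonidine 5. In whole tissue, a difference in the tissue or cells taken and a difference in RNA per cell cannot be told apart.

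Adra2a, which encodes the α2A receptor, was the most abundant of the 8 genes in every library. The controls measured 2.09, 4.9 and 2.57 FPKM. The NE libraries measured 2.16, 3.61, 2.21, 3.37, 2.78, 2.49 and 2.3 FPKM, and the brimonidine libraries 2.78, 1.95, 2.15, 2.5, 2.96, 2.57 and 2.12 FPKM. The 3 groups overlapped, and the 4.9 FPKM of control 2 was the highest value of the 17. The means were 3.19 ± 1.5 (SD, n = 3), 2.7 ± 0.58 (n = 7) and 2.43 ± 0.372 (n = 7). Adra2a was the only one of the 8 genes to pass the filter of at least 1 FPKM in at least 3 libraries in each comparison, and it was not called in any of them. On the log2(FPKM + 1) scale the NE group differed from control by -0.14 ± 0.20 (SE, limma adjusted p = 0.655). Exact two-sided permutation tests gave p = 0.558 for NE against control, 0.335 for brimonidine against NE and 0.283 for brimonidine against control. With control 2 left out, the difference between NE and control turned to 0.14 (exact permutation p = 0.472). At 115 to 283 fragments per library, Adra2a was the best measured of the 8, and its spread among the 14 exposed libraries was 6.27 times that of counting error in variance.

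Adra2c, which encodes the α2C receptor, measured 0.743, 2.73 and 0.614 FPKM in the controls. It measured 0.678, 0.787, 0.73, 0.508, 0.845, 0.663 and 0.544 FPKM in the NE group and 0.451, 0.55, 0.51, 0.504, 0.571, 0.524 and 0.664 FPKM in the brimonidine group. All 7 brimonidine libraries were below the mean of the NE group, 0.679 ± 0.122, and their mean was 0.539 ± 0.0667, although the groups overlapped. The difference of brimonidine from NE was -0.12 on the log2(FPKM + 1) scale (exact two-sided permutation p = 0.0274, 7 of 7 lower), the smallest p of the 8 genes in this comparison, which is given before any correction for the 24 tests of 8 genes in 3 comparisons. Of all 34125 genes above 0 in this comparison, 4.18% had an exact p under 0.05, as did 1 of these 8. In limma without a filter the adjusted p was 0.898, and in limma voom on recovered fragments with at least 3 fragments in at least 3 libraries it was 0.93. Against control, brimonidine was lower by 0.51 on the same scale (exact permutation p = 0.0167, voom adjusted p = 0.103, and 0.0342 without control 3), with 6 of 7 libraries below every control. Without control 2 the 2 remaining controls and the NE group had means of 0.678 and 0.679 FPKM, and brimonidine differed from control with p = 0.0556 by the exact permutation test, for which the smallest possible was 0.0278.

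Adra2b, which encodes the α2B receptor, was scarce. It measured 0.19, 0.361 and 0.0775 FPKM in the controls, from 11, 22 and 5 fragments. The NE libraries measured 0.0142, 0.0703, 0.0854, 0.0272, 0.0142, 0.0158 and 0.0424 FPKM, from 1 to 6 fragments, and the brimonidine libraries 0.0138, 0.0278, 0.0547, 0.0418, 0.0701, 0.058 and 0.03 FPKM, from 1 to 5. Every brimonidine library lay below every control, and 6 of 7 NE libraries did, NE 3 being the exception. The control mean of 0.209 ± 0.143 FPKM was 5.44 times the NE mean of 0.0385 ± 0.029 and 4.95 times the brimonidine mean of 0.0423 ± 0.0198. The exact permutation p was 0.0167 for NE against control and 0.00833, the smallest possible, for brimonidine against control, and without control 2 it was 0.0556 and 0.0278. The brimonidine and NE groups differed by 0.01 on the log2 scale (exact permutation p = 0.771). In limma without a filter Adra2b was not called against control in either exposed group (limma adjusted p = 0.0591 in NE). With all 17 libraries in 1 model it was called in NE (limma adjusted p = 0.00614). The limma voom fit on fragments put NE below control by -2.23 ± 0.57 log2 units (SE, limma adjusted p = 0.0249) and brimonidine below control by -2 ± 0.52 (limma adjusted p = 0.0248). Once control 2 was left out the differences were -1.72 and -1.49 and neither was called (limma adjusted p = 0.117 and 0.111). The call in NE was also lost in this fit without NE 1, NE 4 or NE 5 (limma adjusted p = 0.0525, 0.052 and 0.0515), and that in brimonidine without brimonidine 2 (limma adjusted p = 0.0506).

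Because Adra2b is scarce and Adra2c moderate, most α2 transcript was Adra2a. Its share of the summed FPKM of the 3 genes was 61.3 to 78.8% in the controls, 73.1 to 86.3% in the NE group and 75.4 to 85.6% in the brimonidine group. The share of Adra2b was 2.38 to 6.27%, 0.391 to 2.82% and 0.427 to 2.01% in the same order. The Adra2a share was 8.88 percentage points higher in NE than in control (exact permutation p = 0.05) and 10.7 points higher in brimonidine than in control (p = 0.025, exact permutation test), and 1.82 points higher in brimonidine than in NE (exact permutation p = 0.393). With control 2 left out the first 2 differences were 4.65 and 6.47 points (exact permutation p = 0.278 and 0.0833). The summed α2 level was 8 FPKM in control 2 and 2.53 to 4.47 FPKM in the other 16 libraries.

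**Figure D1:**
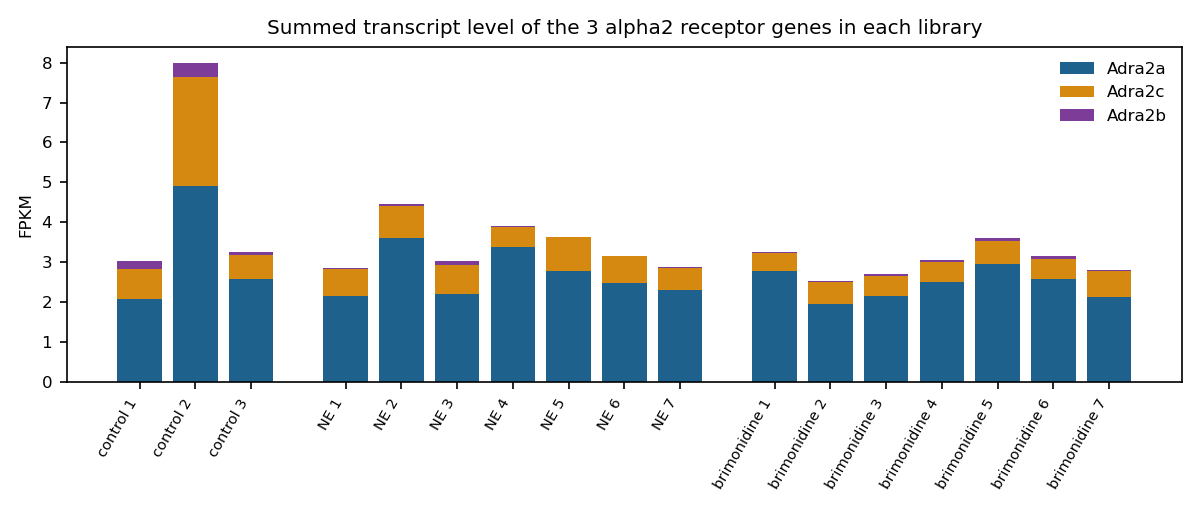
FPKM of Adra2a, Adra2c and Adra2b stacked for each of the 17 libraries, grouped by control, NE and brimonidine. Control 2 reaches 8 FPKM, the other libraries 2.53 to 4.47, and Adra2a is the largest segment in every bar.

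The α1 receptors drive vasoconstriction in smooth muscle. Adra1a (ENSMUSG00000045875, chr14:66635251-66771168, plus strand, 2 or 3 coding exons by transcript) had the lowest mean of the 8 genes in the exposed libraries. It measured 0.151, 0.287 and 0.0855 FPKM in the controls, from 19, 38 and 12 fragments. The NE libraries measured 0.00653, 0.0259, 0.0982, 0.0188, 0.0327, 0.0218 and 0.026 FPKM, and the brimonidine libraries 0.00636, 0.0191, 0.0314, 0.0256, 0.0451, 0.0133 and 0.0276 FPKM. Only NE 3, with 15 fragments, reached into the range of the controls. The control mean was 5.31 times the NE mean and 7.24 times the brimonidine mean. The exact permutation p was 0.0167 for NE and 0.00833 for brimonidine against control, and 0.62 between the exposed groups. The voom fit with at least 3 fragments gave log2 fold changes against control of -2.45 ± 0.53 for NE (limma adjusted p = 0.0101) and -2.69 ± 0.49 for brimonidine (limma adjusted p = 0.00305). Without control 2 they were -2 (limma adjusted p = 0.0389) and -2.24 (limma adjusted p = 0.00745), and Adra1a was called in all 10 fits of this kind with 1 library left out, in both comparisons. In limma without a filter the call was less stable. There the NE difference was called with all libraries (limma adjusted p = 0.0482) but in only 2 of 10 fits with 1 left out, those without control 3 and without NE 3, and the limma adjusted p of the other 8 ran from 0.055 to 0.134, the last without control 2. The brimonidine difference was lost without brimonidine 1 or brimonidine 6 (limma adjusted p = 0.0519 and 0.0518). The exact test without control 2 gave p = 0.0556 for NE and 0.0278, the smallest possible, for brimonidine.

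Adra1b (ENSMUSG00000050541, chr11:43774606-43901210, minus strand) and Adra1d (ENSMUSG00000027335, chr2:131545850-131562283, minus strand) were more abundant. Adra1b measured 0.654, 1.64 and 0.993 FPKM in the controls, 0.679 to 0.91 in the NE group and 0.563 to 1.02 in the brimonidine group. The groups overlapped, and the exact permutation p was 0.1 for NE and 0.075 for brimonidine against control. Adra1d measured 0.619, 1.39 and 0.196 FPKM in the controls, 0.27 to 0.803 in the NE group and 0.173 to 0.563 in the brimonidine group, so that the controls held both a higher value than any exposed library and one near the lowest. Its exact permutation p was 0.383 for NE and 0.242 for brimonidine against control. Neither gene was called in any comparison in the limma fit without a filter or in the voom fit with all libraries. In the voom fit without control 1 Adra1b was called lower in NE (limma adjusted p = 0.0464) and in brimonidine (limma adjusted p = 0.0309). Gm14285, on the opposite strand of Adra1d, was at 0 in all 17 libraries.

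Adrb1 (ENSMUSG00000035283, chr19:56722372-56724862, plus strand), the β1 receptor of heart and of many neurons, measured 0.75, 0.264 and 1.4 FPKM in the controls. It measured 0.526, 0.748, 0.551, 0.571, 0.664, 0.611 and 1.0 FPKM in the NE group and 0.646, 0.514, 0.374, 1.01, 0.542, 0.444 and 0.893 FPKM in the brimonidine group. The lowest of all 17 libraries was control 2 and the highest control 3, with every exposed library between them. The exact permutation p was 0.717 for NE and 0.608 for brimonidine against control. The controls other than control 2 averaged 1.07 FPKM against 0.668 in the NE group, a difference of -0.30 on the log2(FPKM + 1) scale (exact permutation p = 0.0556).

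Adrb3 (ENSMUSG00000031489, chr8:27225776-27250616, minus strand) encodes the β3 receptor, best known from adipocytes. It measured 0.266, 0.176 and 0.276 FPKM in the controls, from 13, 9 and 15 fragments. The NE libraries measured 0.135, 0.134, 0.0677, 0.0648, 0.101, 0.0564 and 0.101 FPKM, from 3 to 8 fragments, and none reached the lowest control. The control mean of 0.239 ± 0.0555 was 2.54 times the NE mean of 0.0943 ± 0.0325 (exact permutation p = 0.00833, the smallest possible). Without control 2 the groups still did not overlap (p = 0.0278 by the exact permutation test, again the smallest possible), and the voom fit put NE lower by -1.51 (limma adjusted p = 0.0233), against -1.31 ± 0.34 (limma adjusted p = 0.0254) with all controls. That call was lost without control 1, control 3 or NE 4 (limma adjusted p = 0.0516, 0.0751 and 0.055), and in limma without a filter it was lost without control 3 (limma adjusted p = 0.0595). The brimonidine libraries measured 0.0493, 0.0495, 0.0813, 0.0995, 0.0833, 0 and 0.267 FPKM. No fragment was seen in brimonidine 6, which allows up to 0.0517 FPKM by a floor of 3 fragments and 0.0636 by the 95% Poisson interval. Brimonidine 7 with 15 fragments stood at the level of the controls. The difference of brimonidine from control had an exact permutation p of 0.025, which was 0.0556 without control 2, and a limma voom adjusted p of 0.0789, which was 0.039 without brimonidine 7. Of 7 adipocyte markers 3 passed the filter and none was called. Adipoq was 2.43 to 7.44 FPKM in the controls and 3.26 to 7.11 in the exposed libraries. Ucp1 measured 4.19, 0.564 and 0.342 FPKM in the controls and 0 to 2.57 in the exposed libraries. For the other members of the list the means went the other way, with Cfd at 2.47 FPKM in the controls and 4.64 in the exposed libraries, Fabp4 at 5.66 and 6.8, Cidec at 0.27 and 0.419, Plin1 at 0.129 and 0.209 and Lep at 0 and 0.011. The opposite-strand gene Gm45470 overlaps Adrb3 and reached at most 0.0789 FPKM.

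**Figure D2:**
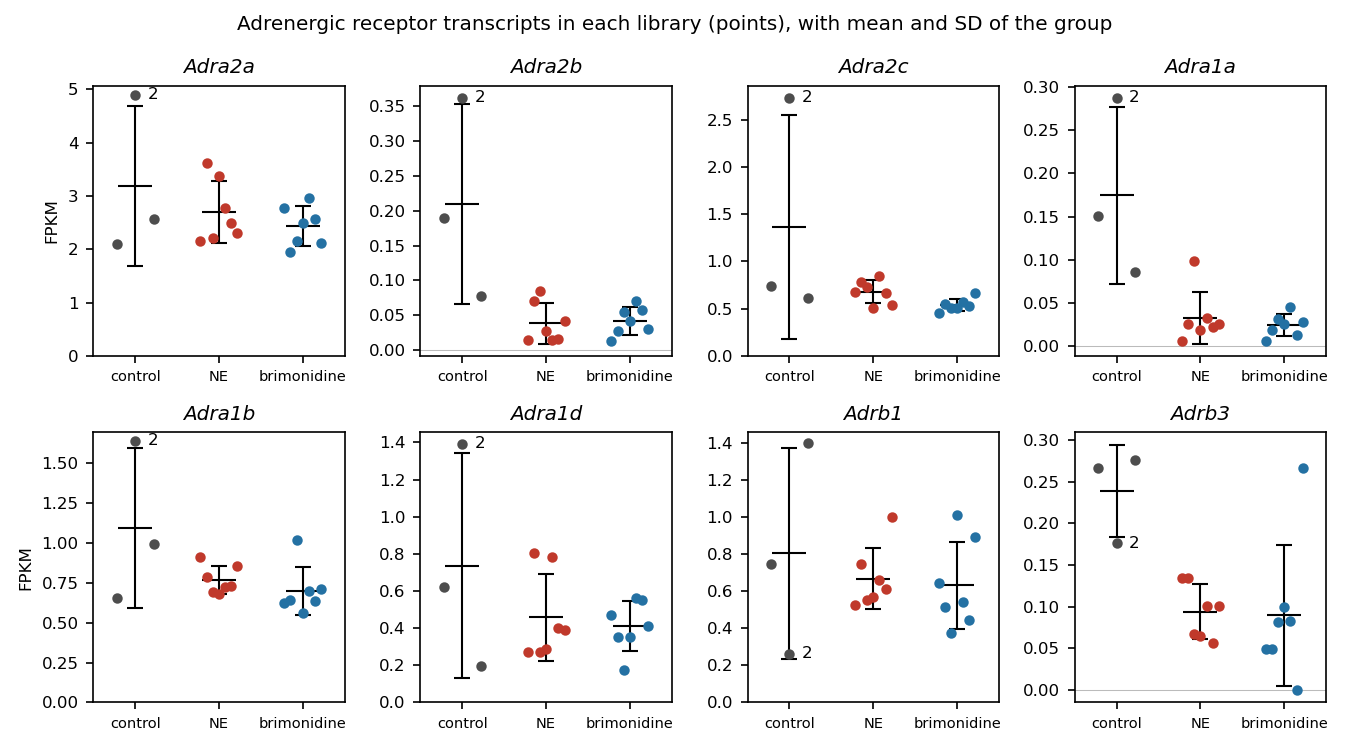
FPKM of the 8 receptor genes in each library (points) for control (n = 3), NE (n = 7) and brimonidine (n = 7), with the mean (long dash) and SD (bars) of each group, each gene on its own scale. The point marked 2 is control 2, the highest of 17 libraries for all 6 α genes and the lowest for Adrb1.

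Counted over the genes, the limma fit called 0 of the 1 receptor gene tested, against 14.1% of 15950 genes in NE against control (12.0% lower and 2.12% higher), 15.8% of 15947 in brimonidine against control (12.3% lower and 3.47% higher), and 0.00637% of 15707, a single gene, in brimonidine against NE. At an unadjusted p under 0.05 none of the receptors tested in these fits passed, and 32.9%, 35.6% and 5.77% of all genes did. Because that filter left 7 genes out, other settings were counted as well. Without a filter, NE against control called 2 of 8, Adra1a (limma adjusted p = 0.0482) and Adrb3 (limma adjusted p = 0.0204), both lower, beside 6.43% of 33587 genes lower. Brimonidine against control called 1 of 8, Adra1a (limma adjusted p = 0.0238), beside 6.58% of 33505 lower. With a filter of 0.1 FPKM, 0 of 6 were called in each comparison, beside 9.55% of genes lower in NE and 10.1% in brimonidine against control, and 0% called in brimonidine against NE. Other settings were run on all 8 genes unfiltered, and each receptor gene they called was lower. In NE the count was 0 with quantile normalization or robust eBayes (4.89% and 6.16% of all genes lower), 1 with array weights, equal totals or a pseudocount of 0.1 (5.72%, 4.48% and 6.48%), 2 with median ratio scaling (5.87%) and 3 with all 17 libraries in 1 model (12.1%). In brimonidine against control it was 1 with quantile normalization, robust eBayes, array weights or equal totals (5.1%, 6.36%, 6.07% and 4.71% of all genes lower), 2 with median ratio scaling or a pseudocount of 0.1 (6.53% and 6.82%), and 3 with all 17 libraries in 1 model (11.7%). The voom fit with at least 10 fragments called Adra1a alone, of 6 genes tested for NE and 7 for brimonidine against control, beside 13.4% and 14.2% of genes lower, and Adra1a passed that filter through the 3 controls and, for NE, NE 3. With at least 3 fragments, a setting chosen after the low levels had been seen, all 8 genes were tested, and 3 were lower in NE (Adra1a, Adra2b, Adrb3; 11.4% of 23137 genes were lower) and 2 in brimonidine (Adra1a, Adra2b; 12.3% of 23111 genes). Leaving out 1 library at a time changed the count to between 1 and 3 in both comparisons, and Adra1b (without control 1) and, in brimonidine, Adra2c (without control 3) and Adrb3 (without brimonidine 7) were then called as well. It was 1 without NE 4 and, for brimonidine, 1 without control 2 and 1 without brimonidine 2. In brimonidine against NE none of the receptor genes was called in any setting tried, beside 0% of all genes without a filter, 0.00293% with array weights and no filter, 0.0053% in the voom fit with 10 fragments and 0.00424% with 3. Both comparisons with control share the same 3 control libraries, so they are not independent of each other. Of the genes called by limma, 85.0% were lower in NE and 78.0% in brimonidine. These shares fell to 69.3% and 63.4% with median ratio scaling and to 61.5% and 52.6% with quantile normalization.

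Groups that did not overlap, the exposed group below control, were found for 1 gene in NE (Adrb3) and for 2 in brimonidine (Adra1a, Adra2b), against 10.1% of 33587 and 9.81% of 33505 genes. None lay wholly below NE in brimonidine, as 0.0352% of genes did. The same 3 genes did not overlap in those comparisons when control 2 was left out, against 11.8% and 11.6% of genes. An exact p under 0.05 was reached by 3 genes in NE (Adra1a, Adra2b, Adrb3) and 4 in brimonidine (these and Adra2c), against 20.9% and 22.3% of all genes. All 8 receptor genes had a lower mean in each exposed group than in control, but the difference turned positive with quantile normalization for Adrb1 in both comparisons and for Adra2a in NE, and with array weights for Adra1d in both and for Adra2a in NE.

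Control 2 carried much of that direction for the α genes. It was the highest of the 17 libraries for all 6, at 1.99 times (Adra1b) to 4.03 times (Adra2c) the mean of the other 2 controls, and the lowest for Adrb1, where the other controls averaged 4.06 times its value. For Adrb3 it was the lowest control. Without control 2, the means of Adra1d and Adra2a were no longer lower in the exposed groups, and the difference of Adra2c between NE and control was 0.00 (exact permutation p = 1.0). Adra1a, Adra2b and Adrb3 kept control means 3.59, 3.47 and 2.88 times the NE mean, and 4.9, 3.16 and 3.01 times the brimonidine mean. In the same library the erythroid markers Hba-a1, Hbb-bs and Alas2 summed to 9452 FPKM against 1518 to 5232 elsewhere, and the cochlear markers to 1171 against 489 to 824.

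**Figure D3:**
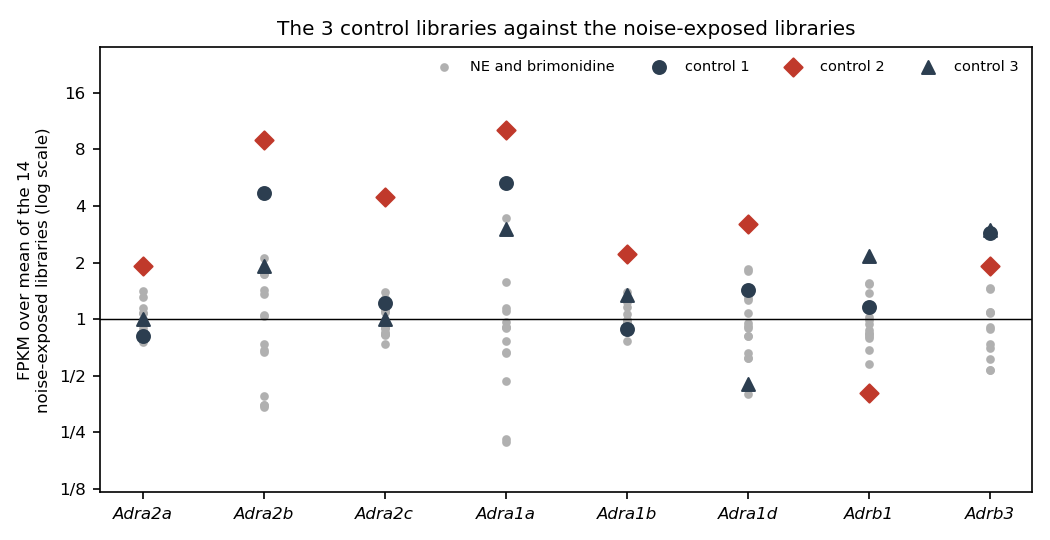
FPKM of each gene divided by its mean over the 14 noise-exposed libraries, on a log2 axis, for the 3 controls (circle, diamond and triangle) and the exposed libraries (grey points; the 0 of Adrb3 in brimonidine 6 cannot be drawn). The diamonds of control 2 lie above all other points for the 6 α genes and below them for Adrb1, and the controls of Adra1a and Adrb3 lie mostly above the exposed libraries.

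Cerebellar neuron markers also differed between the controls and the exposed libraries. All 10 markers passed the filter, for NE 2 of them through the controls alone, and all 10 were lower in NE and in brimonidine than in control (medians of -3.77 and -3.68 on the log2 scale, medians of all genes -0.04 and -0.03), as they were without a filter. Leaving out control 2, 8 of 8 tested were lower in NE and 10 of 10 in brimonidine. Up to 2 of the 10 were at 0 in an exposed library. Over all 17 libraries the summed level had a Pearson r of 0.88 with Adra1a, 0.85 with Adra2b and 0.64 with Adrb3 on the log2 scale, but also of 0.68 with Adra2c and 0.64 with Adra1b, neither called without a filter or with voom. Over the 16 libraries other than control 2 the 5 values were 0.78, 0.73, 0.70, 0.22 and 0.23 in that order, and over the 14 exposed libraries the first 3 were 0.29, 0.32 and 0.12. The sum of 6 peripheral and spiral ganglion neuron markers had an r of 0.94 with Adra1a (0.87 without control 2) and of 0.89 with Adra2b (0.72 without control 2). In that sum Snap25 averaged 81.6 FPKM in the controls and 12.7 in the exposed libraries, and Tubb3 31.4 and 11.6. Nefl (18.3 and 9.34), Nefm (10.8 and 7.8) and Isl1 (4.65 and 4.0) differed less, and Prph went the other way (1.49 and 2.48). These are descriptions, and the libraries share their groups, depth and tissue. The order among the controls differed: control 2 had the most cerebellar transcript and the most Adra1a and Adra2b, but the least Adrb3. Brimonidine 5, with 109 FPKM of these markers against 39.9 or less in the other exposed libraries, was the highest brimonidine library for Adra1a, Adra1d, Adra2a and Adra2b, and those 4 genes had 0.0451, 0.563, 2.96 and 0.0701 FPKM there. The part of these markers in the receptor differences was not tested.

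**Figure D4:**
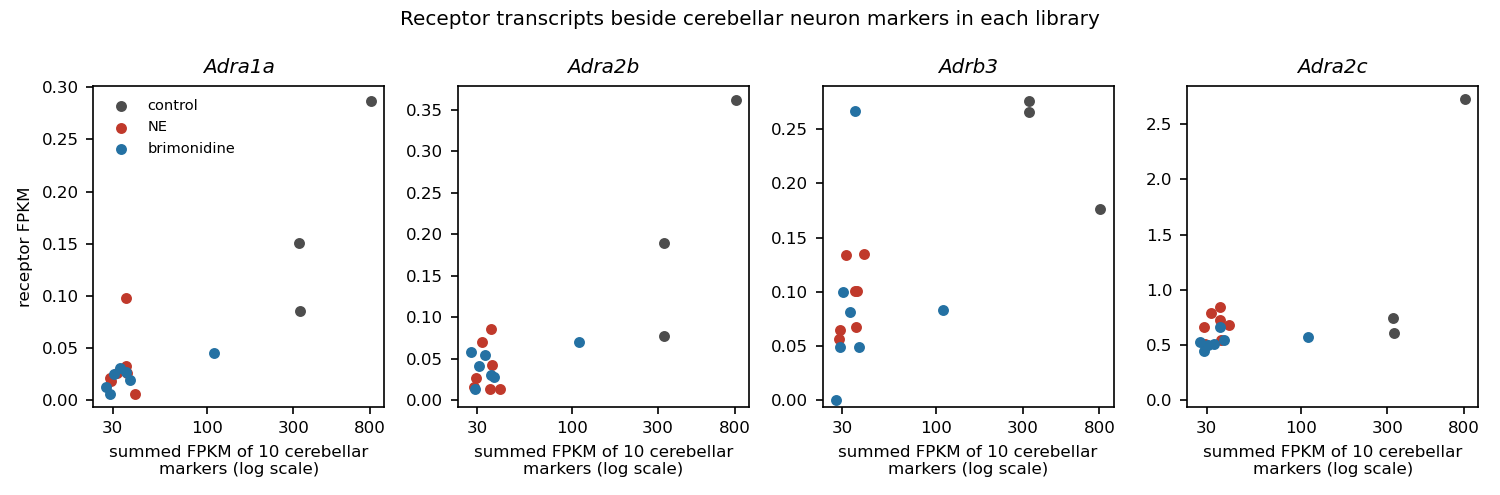
FPKM of Adra1a, Adra2b, Adrb3 and Adra2c in each library against the summed FPKM of 10 cerebellar neuron markers (log axis), colored by group. The 3 controls lie at 324 to 810 on the horizontal axis, the exposed libraries at 27.7 to 109, and for Adrb3 the control with the highest marker sum has the lowest level.

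Other cell type lists moved less. Of 6 peripheral and spiral ganglion neuron markers, 1 was called lower in NE and 3 in brimonidine, beside 12.0% and 12.3% of all genes lower. Vascular smooth muscle and pericyte markers, also 6, had 0 of 4 tested called in both, and neutrophil markers 0 of 6. Skeletal muscle markers had 3 of 6 called higher in NE and 0 in brimonidine, where 2.12% and 3.47% of all genes were higher. Leaving out control 2, they had 6 of 6 higher in NE and 3 of 6 in brimonidine, beside 0.875% and 2.02% of all genes higher. Adipocyte (3 tested), cochlear (6), platelet (4) and erythroid (3) markers had 0 called in both. Without control 2, 1 of 4 vascular smooth muscle markers and 1 of 6 cochlear markers were called higher in brimonidine. None of any list was called between brimonidine and NE. Among the 14 exposed libraries the markers with the highest r were skeletal muscle for Adra2a (0.73), vascular smooth muscle for Adra1d (0.62) and peripheral neurons for Adra1a (0.82), and Adrb1 had an r of -0.71 with erythroid markers. The rank correlations (Spearman rho) were 0.79, 0.84, 0.60 and -0.67 in that order. NE 3 had both the highest Adra1a (0.0982 FPKM) and the highest peripheral neuron marker sum (90.5) of the exposed libraries. With 9 lists set against 8 genes, these are descriptions only.

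In the order of levels over the 14 exposed libraries Adra2a came first (mean 2.57 ± 0.488 FPKM), then Adra1b (0.734 ± 0.123), Adrb1 (0.65 ± 0.197), Adra2c (0.609 ± 0.119), Adra1d (0.434 ± 0.186), Adrb3 (0.0921 ± 0.0617), Adra2b (0.0404 ± 0.0239) and Adra1a (0.0285 ± 0.0226). In the NE group Adra2a exceeded Adra1b in 7 of 7 libraries (sign-flip exact permutation p = 0.0156, adjusted over the 7 neighbouring pairs 0.0547). Adra1b and Adrb1, and Adrb1 and Adra2c, could not be told apart (p = 0.141 and 0.953, exact permutation). The drop from Adra1d to Adrb3 was seen in all 7 libraries of each exposed group, with adjusted exact permutation p of 0.0547 in NE and 0.0365 in brimonidine. Adra2b and Adra1a could not be told apart in NE (p = 0.562, exact permutation) and differed in brimonidine (adjusted exact permutation p = 0.0365). With 3 controls no pair could reach an exact p below 0.25.

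The receptors' own counts set the precision. Adra1a had 35 fragments in the 7 NE libraries together and Adra2b 19, and between 1 and 15 per library. The 95% Poisson interval, which covers counting error only, ran from 0.055 to 0.162 FPKM for Adra1a in NE 3 and from 0.0442 to 0.149 in control 3, the closest approach of the groups. For Adra2b the interval of control 3 ran from 0.0252 to 0.181 FPKM, and the highest exposed library, NE 3, measured 0.0854. The spread among the exposed libraries was near counting error for Adra2b (ratio of variance to expectation 0.991), Adra1b (1.25) and Adra2c (1.43). It was above counting error for Adra2a (6.27), Adra1a (2.74), Adra1d (2.68), Adrb1 (2.63) and Adrb3 (2.37). For Adra1a the ratio was 4.17 in the NE group, where NE 3 had 15 fragments, and 1.04 in the brimonidine group.

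The 3 genes whose levels followed Adra2a most closely over the 17 libraries, of 16416 genes passing the filter, were Vwa1 (r = 0.85), an extracellular matrix protein, Sfrp5 (0.84), a secreted Wnt antagonist, and Cavin1 (0.84), a component of caveolae. Over the 16 libraries other than control 2 these r were 0.66, 0.64 and 0.68. For Adrb1, which passed the filter over all 17 libraries, they were Fignl2 (0.84), Glis3 (0.82), a transcription factor, and 4933439K11Rik (0.82), and over the 14 exposed libraries 0.91, 0.76 and 0.67.

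The other genes of the pathway were taken as 6 lists with 56 genes. In NE against control 46 passed the filter, 17 were lower and 0 higher, beside 12.0% of all genes tested lower. In brimonidine against control 47 passed, 17 were lower and 1 higher, beside 12.3% lower and 3.47% higher, and in brimonidine against NE 0 of 41 were called. Of the 17 lower genes, 6 in NE and 4 in brimonidine passed the filter through the controls alone, with no exposed library at 1 FPKM, so they had to differ and their levels are given as a description. Among the others, 11 of 40 were lower in NE and 13 of 43 in brimonidine. Without a filter, 14 of 56 were lower in NE and 16 of 55 in brimonidine, where 6.43% and 6.58% of all genes were lower. The cerebellar neuron markers moved with these genes, at a summed 324 to 810 FPKM in the controls, 28.8 to 39.9 in NE and 27.7 to 109 in brimonidine with 10 of 10 markers lower, and their part in the pathway differences was not tested. Leaving out control 2, the calls were 5 of 40 lower in NE and 9 of 43 lower in brimonidine, beside 5.86% and 7.45% of genes lower. The filter needs 3 libraries, so with 2 controls it drops genes that only the controls express. The voom fit with at least 3 fragments, which does not drop them in that way, called 14 of 54 lower in NE without control 2 and 16 of 55 lower in brimonidine, where 7.56% and 8.96% of all genes were lower.

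Of the G protein α subunits, 3 of 9 tested were lower in NE, beside 12.0% of all genes. Gnao1, the Go subunit through which α2 receptors reach ion channels, fell from 12.8 ± 9.03 FPKM in control to 1.9 ± 0.537 in NE and 2.05 ± 0.639 in brimonidine (log2 difference of -2.09 ± 0.29 for NE, limma adjusted p = 0.00104). The controls measured 7.91, 23.3 and 7.35 FPKM and no exposed library exceeded 3.48, which was brimonidine 5. Gnai1 fell from 17.4 ± 8.66 to 6.32 ± 0.698 in NE (limma adjusted p = 0.00272), and Gna11 from 16.0 ± 4.78 to 10.8 ± 0.662 (limma adjusted p = 0.0343). The most abundant subunit, Gnai2, measured 126 FPKM in control 2, 225 and 258 in the other controls and 241 to 309 in the exposed libraries, and was not called. Without control 2, Gnao1 (-1.59, limma adjusted p = 0.000332) and Gnai1 (-0.88, limma adjusted p = 0.000552) were still lower in NE, and Gna11 was not called (limma adjusted p = 0.0605). In brimonidine Gnao1, Gnai1 and Gna11 were lower with all controls, 3 of 10 tested, beside 12.3% of all genes. Without control 2 they still were (limma adjusted p = 0.00107, 0.00221 and 0.0362), beside 7.45% of all genes.

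Of the GIRK and HCN channels, which α2 signaling opens and closes, 4 of 5 tested were lower in each exposed group, beside 12.0% and 12.3% of all genes. However, 3 of the 4 in NE and 2 of the 4 in brimonidine passed the filter through the controls alone. Without a filter 5 of 8 were lower in NE and 6 of 8 in brimonidine, beside 6.43% and 6.58% of all genes. Kcnj9 measured 7.26 ± 5.46 FPKM in control, 0.292 ± 0.139 in NE and 0.316 ± 0.478 in brimonidine, and Kcnj3 measured 3.52 ± 2.7 in control and 0.282 ± 0.137 in NE. Both passed through the controls alone in NE. Hcn2 fell by 1.18 on the log2 scale in NE (limma adjusted p = 0.0288). Without control 2, Kcnj3 and Kcnj9 did not pass the filter in NE, and Hcn2 was not called (limma adjusted p = 0.124). In brimonidine without control 2, Kcnj9 and Hcn2 were still lower (limma adjusted p = 0.00164 and 0.00211), 2 of 3 tested, beside 7.45% of all genes. The voom fit without control 2 called 5 of 8 lower in NE and 6 of 8 in brimonidine, beside 7.56% and 8.96% of all genes. In brimonidine 5 Kcnj9 was 1.39 FPKM and 0.273 or less in the other brimonidine libraries.

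Of the RGS proteins, which shorten G protein signals, 2 of 8 tested, Rgs8 and Rgs7, were called lower in each exposed group, beside 12.0% and 12.3% of all genes. Both were admitted in NE, and Rgs7 in brimonidine, by the controls alone. Rgs2 was higher in brimonidine than in control (28.7 ± 2.59 against 20.8 ± 3.57 FPKM, limma adjusted p = 0.0199, and 0.0689 without control 2), where 3.47% of all genes were higher. Rgs8, known from cerebellar Purkinje cells, was 8.73, 26.1 and 8.27 FPKM in the controls, 0.0737 to 0.319 in NE, and 3.03 in brimonidine 5 against 0.41 or less in the other brimonidine libraries. Of the receptor kinases and arrestins, which end receptor signaling, 1 of 7 was lower: Grk3, from 9.99 ± 1.6 to 6.6 ± 0.797 FPKM in NE (limma adjusted p = 0.0122, and 0.0581 without control 2), a share near the 14.1% of all genes called, while Grk2 and Arrb2 measured 99.3 ± 5.17 and 139 ± 19.2 in NE and were not called.

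Of protein kinase A and the cAMP effectors, 5 of 12 tested were lower in each exposed group, beside 12.0% and 12.3% of all genes. Prkar1b, a regulatory subunit known from neurons, fell from 20.3 ± 12.3 to 4.6 ± 1.64 FPKM in NE, Rapgef4, a cAMP-activated exchange factor, from 7.35 ± 4.36 to 2.08 ± 0.699, and Prkaca, the main catalytic subunit, from 29.9 ± 8.47 to 20.5 ± 1.59 (limma adjusted p = 0.0027, 0.0066 and 0.038). Prkacb and Pde4a were the other 2. Without control 2, Prkaca, Prkacb and Pde4a were not called in either comparison (limma adjusted p = 0.104, 0.0976 and 0.141 in NE). In brimonidine the fit gave Prkar1b a difference of -1.94 ± 0.29.

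Of the catecholamine synthesis, transport and breakdown genes, 2 of 5 tested were lower in each exposed group, beside 12.0% and 12.3% of all genes. Of these 2, Th was admitted by the controls alone in both comparisons. Th, the rate-limiting enzyme of catecholamine synthesis, measured 2.08, 3.96 and 1.42 FPKM in the controls, 0.0694 to 0.242 in NE and 0.0707 to 0.571 in brimonidine, with no overlap. Th did not pass the filter in NE without control 2, where the 2 remaining controls were above 1 FPKM and no exposed library was. Dbh, which makes noradrenaline, was at 0 in every library but 1. The noradrenaline transporter Slc6a2 measured 0.0757 ± 0.0436, 0.0853 ± 0.0268 and 0.0775 ± 0.0293 FPKM in control, NE and brimonidine. Maoa, which breaks catecholamines down, fell from 5.58 ± 1.86 to 2.94 ± 0.205 (limma adjusted p = 0.00614). Without control 2, Maoa was still called in NE and not in brimonidine (limma adjusted p = 0.0523).

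**Figure D5:**
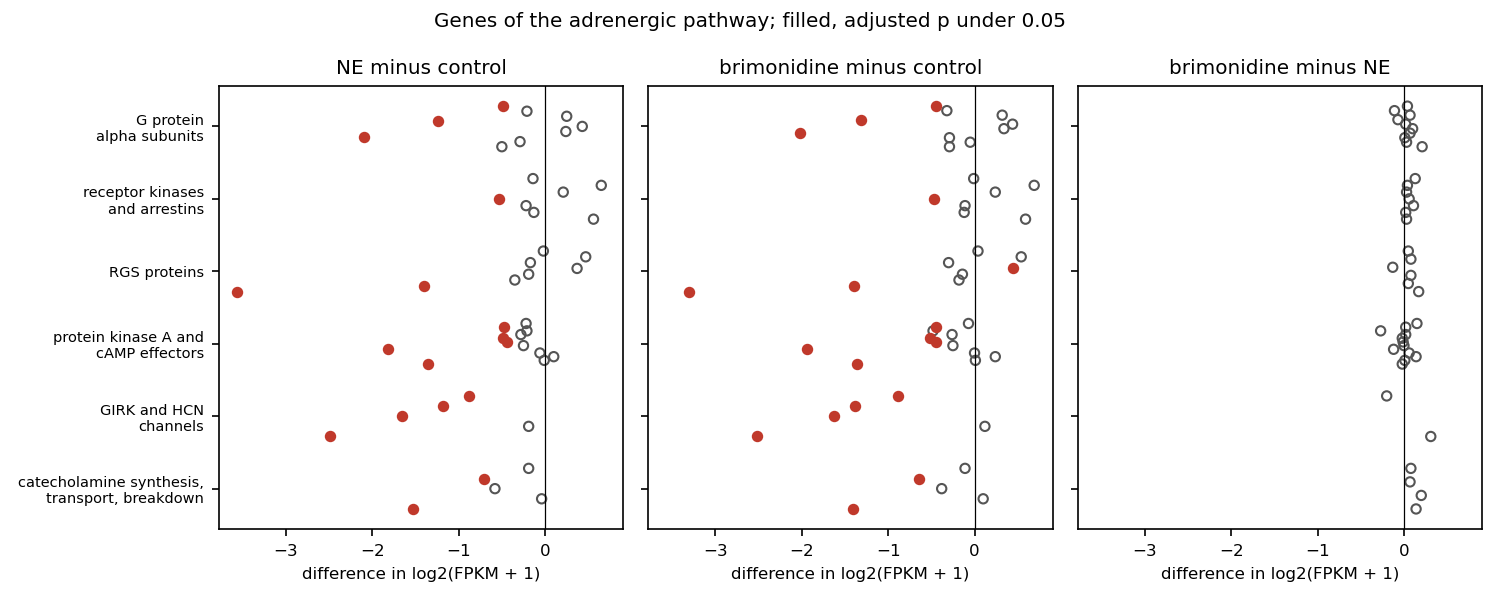
Difference of group means of log2(FPKM + 1) for each tested gene of 6 pathway lists in the 3 comparisons; filled points have a limma adjusted p under 0.05. The filled points lie left of 0 in both comparisons with control, except Rgs2 in brimonidine, and none is filled between brimonidine and NE.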

How the data were processed

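RNA from the cochleae of 17 mice was made into TruSeq Stranded mRNA libraries. The deposited table holds FPKM for 35285 genes, which the authors made, per the submitters' processing notes, with Trimmomatic, HISAT2, Cufflinks and HTSeq on mm10. Versions, the annotation and the strand used in counting were not given in the sources used here. Positions equalled those of GENCODE M21 for 93.9% of 35207 genes.

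Groups came from the sample labels. The main test was limma trend (limma 3.58.1, R 4.3.3) on log2(FPKM + 1), with at least 1 FPKM in at least 3 of the libraries compared, Benjamini-Hochberg adjustment over all genes tested and a call at 0.05. The filter kept 1 of the 8 receptor genes, so each also had an exact two-sided permutation test of mean log2(FPKM + 1), with a smallest p of 0.00833 for 7 against 3 libraries and 0.000583 for 7 against 7. These p-values were not adjusted.

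FPKM steps gave whole fragments (tolerance 0.02) for 35028 of 35029 genes above 0, 2531 of them with a solved length. The fragments were tested with limma voom at a minimum of 10 fragments in 3 libraries, and at 3 fragments, a setting chosen after seeing the data. On simulated data with 200 changed genes in NE against control, the trend test recovered 199 with 17 false calls among 15635 genes, and voom at 3 fragments recovered 198 with 7 false calls among 22849. The changed genes were drawn from mean levels above those of every receptor gene but Adra2a. All genes had the same dispersion and no library was made to stand apart. The simulation therefore cannot show how well changes in the scarce receptor genes are recovered. Other alternatives were scaling, pseudocount, filter, 1 model for all libraries, array weights, robust variance, the replicate number as a block, and leaving out each library. Poisson intervals (95%) and the floor of 3 fragments cover counting error only.

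The receptor genes and the pathway and marker lists were chosen with earlier results of these data known. Genes were named as all 8 receptors, the called genes and up to 4 of the most abundant genes of each list described and, for each receptor passing the filter, the 3 genes of highest r. Dbh and Slc6a2 were named after their values were seen. Some genes that this rule would name are not reported here. Python 3.11.15, numpy 2.4.6, scipy 1.17.1, pandas 2.3.3 and matplotlib 3.10.9 were used.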

Additional observations from a re-analysis of the deposited data

Results flagged for a closer look

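In 3 of the 16 sets of 7 exposed libraries, 1 library lay beyond Dixon's 95% limit for its gap from the others, where chance gives about 1 in 20. Adra1a measured 0.0982 FPKM in NE 3 against 0.0327 or less in the other NE libraries. Adra1b measured 1.02 FPKM in brimonidine 3 against 0.711 or less in the other brimonidine libraries. Adrb3 measured 0.267 FPKM in brimonidine 7 against 0.0995 or less in the others. Groups of 3 controls were not examined in this way.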

How the results depend on the processing

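Counts of genes called depended on the controls. NE against control gave 918 genes with a 2-fold minimum, 5252 at an unadjusted p under 0.05, 4445 with all 17 libraries in 1 model, 5970 with array weights, and 1040 (without control 2) to 3767 (without control 1) leaving out 1 library. Brimonidine against control gave 913, 5672, 4592 and 6916 in the same order, and 1472 to 4693. Brimonidine against NE gave 906 unadjusted, 4 with array weights, 0 to 2 leaving out 1 library, and 0 with a 2-fold minimum, no filter, a 0.1 FPKM filter, quantile normalization, equal totals or 1 model. With the replicate block the calls were 0, 0 and 236 for NE against control, brimonidine against NE and brimonidine against control, with 0 of the 8 receptor genes called. Same-numbered libraries shared only a number (0 of 13 pairs had an r of deviations over 0.1, and 0 correlated best with their own number). Voom at 3 fragments, leaving out 1 library, gave 1850 to 4854, 0 to 5 and 2349 to 5807 genes in that order of comparisons.

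Receptor genes called in NE against control were 2 with no filter, 1 with voom at 10 fragments and 3 at 3 fragments (1 to 3 leaving out 1 library). In brimonidine against control they were 1, 1 and 2 (1 to 3). Without a filter, quantile normalization and robust eBayes called 0 in NE against control, and all 17 libraries in 1 model called 3 in each comparison with control. The difference turned positive in NE against control with quantile normalization for Adra2a (0.09) and Adrb1 (0.07) and with array weights for Adra1d (0.08) and Adra2a (0.07). In brimonidine against control it did for Adrb1 with quantile normalization (0.03) and for Adra1d with array weights (0.06).

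Leaving out 1 library moved the NE against control differences from -0.45 to 0.05 for Adra1d, -0.33 to 0.14 for Adra2a and -0.30 to 0.16 for Adrb1, with voom ranges of -1.15 to 0.26, -0.41 to 0.19 and -0.66 to 0.54. For brimonidine against control the ranges were -0.49 to 0.01, -0.43 to 0.04 and -0.34 to 0.12, with voom ranges of -1.25 to 0.16, -0.55 to 0.05 and -0.79 to 0.41. For brimonidine against NE they were -0.02 to 0.003 for Adra1a, -0.07 to 0.02 for Adra1d, -0.00085 to 0.02 for Adra2b, -0.09 to 0.01 for Adrb1 and -0.05 to 0.01 for Adrb3, with voom ranges of -0.50 to 0.06 for Adra1a and -0.20 to 0.09 for Adra1d. The cause of these changes was not tested. Adra1a, Adra2b and Adrb3 rest on 0 to 38 fragments per library, and 3 controls, 1 of which stood apart, set the precision of both comparisons with control.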
